A study of Schizosaccharomyces pombe with 16 samples.

Results

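The experiment described here shifted the fission yeast mutant fcp1-452 from 26 to 37 °C while the cells had nitrogen. Its members were chosen by sample title: all arrays of fcp1-452 with nitrogen at 26 or 37 °C, which are 6 of the 16 arrays of the series. The labels call fcp1-452 a temperature-sensitive (ts) strain, and 26 and 37 °C are its permissive and restrictive temperatures. The fcp1-452 cells and the wild-type cells of strain L972 set beside them were harvested while growing logarithmically in EMM2, a synthetic minimal medium, at 26 or 37 °C. Polyadenylated RNA was measured on biotin-labelled Affymetrix arrays. The time spent at 37 °C, the other genetic markers of the mutant and the number of independent isolates of the allele are not given in the sources used here. This mutant is thus represented by 1 allele, and the labels do not tell whether the replicates were grown separately, so the p-values rest on a spread between samples that may be technical.

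Fcp1 is a phosphatase that takes phosphate off the repeated carboxy-terminal tail of RNA polymerase II, a stretch whose phosphorylation follows the polymerase through initiation, elongation and termination and has to be reset before the enzyme can start again. In fission yeast, transcription runs in waves with the cell cycle: genes for cell separation peak as cells leave mitosis, genes for DNA synthesis peak at the passage from G1 to S under the factor MBF, and histone genes peak during S phase. When nitrogen runs out, this yeast arrests in G1, recycles its own proteins by autophagy, and then mates or becomes quiescent.

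On each array, the deposited value of a probe set (the oligonucleotides that measure 1 transcript) was a ratio to that probe set's median over the 8 arrays of its set. Differences between samples are therefore interpretable within a probe set only, and levels cannot be compared between genes. In each group the set 1 array and the replicate 1 array of set 2 agreed across probe sets with r of 0.975 to 0.990, whereas set 1 and replicate 2 correlated at only 0.652 to 0.765. These 2 arrays were counted as 1 sample, which left 2 samples of fcp1-452 at each temperature. Values per sample are given below as the log2 ratio to the median of set 2, in the order replicate 1, replicate 2. Differences are log2 differences, 37 minus 26 °C, with the SE from limma (n = 2 per group), and a probe set is called at an adjusted p under 0.05. The number of arrays limits the precision.

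At 37 °C the mutant had lower RNA for the DNA synthesis genes cdt1 and cdc22, the cell separation genes adg1 and adg2, and the nitrogen permease genes put4 and amt1, and higher RNA for the small heat shock protein gene hsp16, the mug108 gene and the meiotic genes meu13 and hop1. Of 4999 probe sets, 890 were called higher (17.8%) and 1105 lower (22.1%), so that 39.9% of everything measured was called. The called rises had a median of 0.70 and the called falls of -0.79, and at least a 2-fold change was reached by 203 of the rises (4.06% of probe sets) and 375 of the falls (7.50%). Beyond 4-fold there were 32 rises against 73 falls, and beyond 8-fold 15 against 22. Both replicates moved the same way in every called probe set of this fit, and over all 4999 the samples at 37 and 26 °C did not overlap in 24.4% that were higher and 27.7% that were lower. Separation of 2 samples from 2 was thus frequent, and for genes picked by the size of their change it is no added test. The shifts of replicates 1 and 2 correlated at r = 0.777 across probe sets, which are not independent of each other, and the shift was broader in replicate 2 (SD 0.821 over probe sets, against 0.734 in replicate 1). Wild type at the same temperatures spread by 0.406 and 0.455 and had 16 probe sets called higher (0.320%) and 11 lower (0.220%). The strains lay closer at an unadjusted limma p under 0.05, which 1029 probe sets passed in wild type and 2521 in fcp1-452. The 1995 calls of the mutant became 1145 after quantile normalization and 593 without the replicate number as a block. They became 730 and 508 without replicate 1 and replicate 2 of fcp1-452 at 26 °C, and 941 without either replicate of wild type. The 27 wild-type calls were less stable: limma called 0 without the block (368 at an unadjusted p under 0.05), 440 after quantile normalization, 605 without either fcp1-452 sample at 37 °C, and 1 to 8 without any other single sample.

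The gene fcp1 itself was measured as a check of the allele. Its values were -0.09 and 0.17 at 26 °C and -0.42 and 0.02 at 37 °C, a difference of -0.24 ± 0.12 that was not called (adjusted p = 0.157). The groups overlapped. A temperature-sensitive allele changes the protein, so this value checks nothing about the label.

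**Figure D1:**
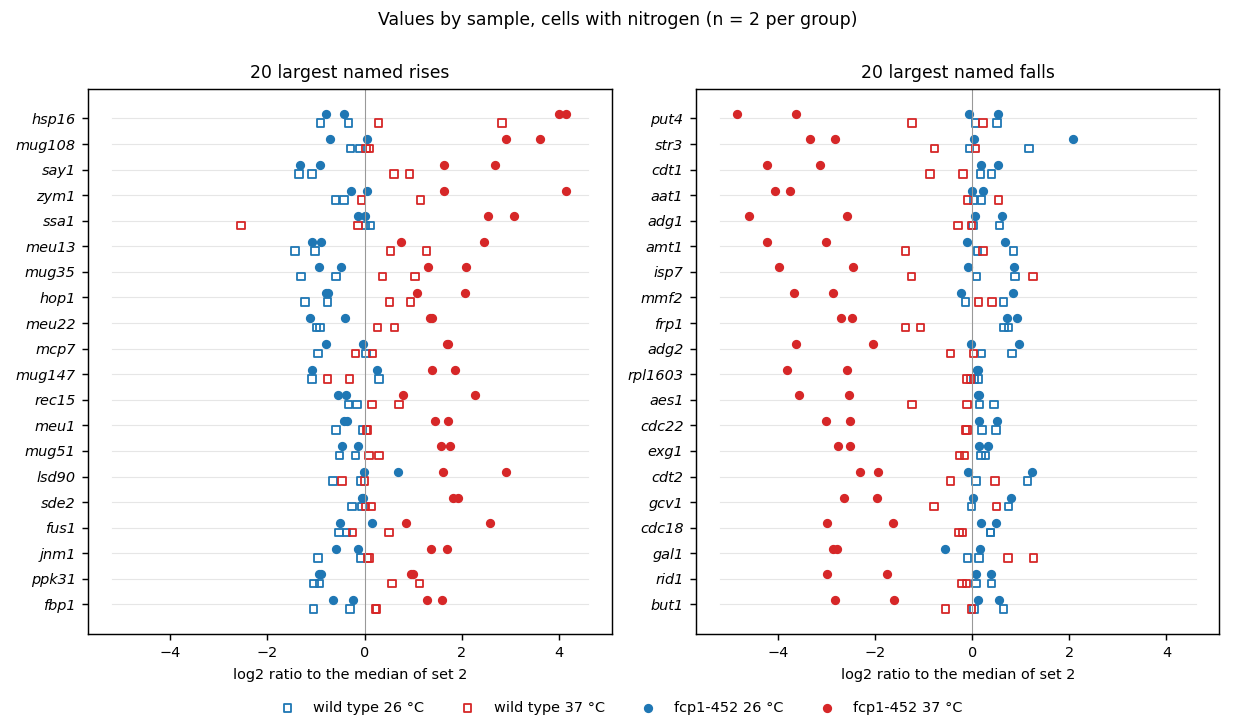
Values of each sample (log2 ratio to the median of set 2, horizontal axis) for the 20 named genes with the largest rises (left) and falls (right) in fcp1-452. Filled circles are fcp1-452 and open squares wild type, blue at 26 °C and red at 37 °C, 2 samples per group; the filled red circles stand clear of the filled blue ones in every gene shown, while zym1 and ssa1 show how far apart samples of 1 group can lie.

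The genes of the G1/S wave fell. Of 24 measured members, 19 fell and 2 rose (79.2% and 8.33%, against 21.5% and 17.9% of all 2899 named genes), and their median difference was -1.06, against -0.04 over all probe sets. The replication licensing factor gene cdt1 stood at 0.54 and 0.19 at 26 °C and at -4.23 and -3.15 at 37 °C, a difference of -4.05 ± 0.37 (adjusted p = 0.00201). Both samples at 37 °C lay far below both at 26 °C. The ribonucleotide reductase gene cdc22, which makes the building blocks of DNA, went from 0.51 and 0.13 to -3.01 and -2.51 (-3.08 ± 0.22, adjusted p = 0.00127). Also lower were cdt2 (-2.71 ± 0.22), whose product marks Cdt1 and the ribonucleotide reductase inhibitor for destruction, cdc18 (-2.64 ± 0.39), which loads the replicative helicase with Cdt1, and cig2 (-2.48 ± 0.18), the S-phase cyclin. The rises were smaller: res2 (0.66 ± 0.16), a DNA-binding subunit of MBF, and suc22 (0.52 ± 0.11), the small subunit of ribonucleotide reductase. The genes of the large and the small subunit, cdc22 and suc22, thus moved in opposite directions, with no overlap between temperatures in either gene. Calls are set below beside 17 alternative fits, some of which are the same fit for the fcp1-452 shift. The res2 call was lost under 9 and the suc22 call under 6 of the 17 alternatives, in both without the replicate block and without either fcp1-452 replicate at 26 °C. The count of falls in this list was 8 without that block and 13 after quantile normalization, and it lay between 8 and 20 over the 17 alternatives.

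Wild type gave these genes a median of -0.03. The difference between the strains was tested as an interaction, the shift in fcp1-452 minus the shift in wild type, and 11 of the 24 members were called lower in it (7.68% of all probe sets were called lower and 4.12% higher). The interaction was -2.61 for cdc22 (adjusted p = 0.0155), -2.30 for cig2 and -2.11 for cdt2, while for cdc18 it was -2.03 and was not called (adjusted p = 0.0656). The 590 interaction calls over all probe sets depended on the processing. They became 7 without the replicate block, and limma called 0 after quantile normalization, where 892 passed at an unadjusted p under 0.05. Without replicate 1 or 2 of wild type at 26 °C limma called 0 as well (1029 and 1136 unadjusted). The count was 39 and 53 without replicate 1 or 2 of wild type at 37 °C, 10 and 13 without those of fcp1-452 at 26 °C, and 1717 and 1220 without those of fcp1-452 at 37 °C.

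Most histone genes, which follow this wave in S phase, were lower too. Of 10 genes for core histones and the variant H2A.Z, 7 fell and 0 rose by limma (8 and 1 at an unadjusted p under 0.05), with a median of -1.06 (wild type -0.40). In the interaction 2 of the 10 were called lower. The histone H3 gene hht1 was at 0.18 and 0.11 at 26 °C and at -1.43 and -1.46 at 37 °C (-1.59 ± 0.10, adjusted p = 0.000989). The H4 gene beside it, hhf1, fell by 1.55 on the log2 scale. The neighbouring pair hht2 and hhf2, which code for the same H3 and H4 proteins, behaved otherwise: hht2 stood at 0.35 ± 0.13 and hhf2 at -0.22 ± 0.10, neither called (adjusted p = 0.0747 and 0.149). Histone genes are near-identical in their coding parts, and several of their probe sets are marked as able to bind related transcripts, so values of single copies are uncertain. The gene ams2, which codes for the GATA factor that drives the S-phase peak of histone transcription, fell by 2.20 ± 0.30 on the log2 scale, and its interaction was called (-2.05, adjusted p = 0.040). Among 44 genes of the replication machinery, 11 fell (25.0%, near the 21.5% of all named genes) and 3 rose (6.82%, against 17.9%), and 5 were called lower in the interaction. Lowest was cdm1, a subunit of DNA polymerase delta (-2.26 ± 0.35), and next pol1, the catalytic subunit of DNA polymerase alpha (-1.10 ± 0.16). These 11 falls became 2 and 1 without replicate 1 or 2 of fcp1-452 at 26 °C.

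Genes of cell separation were lower by more than those of DNA synthesis, in a much shorter list. After mitosis, daughter cells part when enzymes digest the septum between them. Of 7 measured genes for septum cleavage and its regulation, 5 fell and 0 rose by limma (likewise 5 and 0 unadjusted), with a list median of -1.85 (wild type -0.27), and all 5 were also called lower in the interaction. The glycoprotein gene adg1 had values of 0.60 and 0.05 at 26 °C and of -2.59 and -4.61 at 37 °C, a difference of -3.92 ± 0.41 (adjusted p = 0.00238). The groups were far apart, and the samples at 37 °C also differed from each other, replicate 2 being lower. Leaving out probe sets with a ratio of 0.05 or less on any array removed adg1 and kept 6 genes of this list, of which 4 fell. For the endo-glucanase gene eng1, which cuts the primary septum, the samples went from 0.82 and 0.19 to -1.41 and -2.24 (-2.33 ± 0.17). Likewise adg2 (-3.31 ± 0.27), adg3 (-1.85 ± 0.19) and the anillin-like gene mid2 (-1.76 ± 0.13), which organises the septin ring, fell.

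Other mitotic genes fell as single genes inside lists that moved both ways. The slp1 gene, whose product activates the anaphase-promoting complex, went from 0.60 and 0.25 to -1.28 and -1.94 (-2.04 ± 0.30). The contractile ring gene cdc15 was at 0.79 and -0.02 at 26 °C and at -0.79 and -2.26 at 37 °C (-1.91 ± 0.19), with the same direction in both replicates and no overlap. Lower as well were etd1 (-1.66 ± 0.17), an activator of the septation network, the mitotic inducer phosphatase gene cdc25 (-1.01 ± 0.13), the securin gene cut2 (-0.86 ± 0.13) and the polo kinase gene plo1 (-0.51 ± 0.12). In the list of the contractile ring and septation 12 of 47 fell and 7 rose. These shares, 25.5% and 14.9%, were near the 21.5% and 17.9% of all named genes. Among CDK regulators 6 of 15 fell and 2 rose (40% and 13.3%). The kinetochore and spindle list held 24 rises and 11 falls among 78, a share of rises of 30.8%. The median of this list was 0.08 in fcp1-452 and 0.19 in wild type, and the interaction called 6 members higher and 5 lower. Its rises included apc14 (1.28 ± 0.15) and apc10 (1.15 ± 0.12), for subunits of the anaphase-promoting complex, and its deepest falls were the kinesin gene klp8 (-1.79 ± 0.17) and cnp1 (-1.35 ± 0.22), which codes for the centromeric histone CENP-A. Without replicate 1 or 2 of fcp1-452 at 26 °C the rises of this list numbered 7 and 6, and the falls 6 and 2. Without either of these replicates the falls numbered 4 in the contractile ring list and 2 among CDK regulators.

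Some nitrogen transporter genes were among the largest single falls, and genes of the enzymes that fix ammonium fell by less. Of 25 genes of nitrogen source uptake and use, 10 fell and 3 rose (40.0% and 12%), with a median of -0.29, and 9 were called lower in the interaction. When probe sets with a ratio of 0.05 or less on any array were left out, 20 members remained, with 6 falls and 3 rises. Their median was -0.17, and 5 were called lower in the interaction. The proline permease gene put4 was at 0.53 and -0.07 at 26 °C and at -3.63 and -4.84 at 37 °C (-4.47 ± 0.26, adjusted p = 0.000916), the largest named fall in this comparison. Its probe set was among those left out for low ratios. For amt1, an ammonium transporter gene, the samples went from 0.67 and -0.11 to -3.02 and -4.22 (-3.90 ± 0.23). The amino acid permease gene aat1 went from -0.01 and 0.23 to -3.75 and -4.06 (-4.02 ± 0.23), while wild type had 0.02 and 0.19 at 26 °C and 0.54 and -0.09 at 37 °C. Its interaction of -4.14 (adjusted p = 0.00745) was the largest called fall among named genes. On the way into metabolism, the glutamate synthase gene glt1 (-1.88 ± 0.14), the glutamine synthetase gene gln1 (-1.92 ± 0.23) and the NADP-dependent glutamate dehydrogenase gene gdh1 (-1.73 ± 0.12) all fell, and the dehydrogenase gene gdh2, whose product works in the direction of glutamate breakdown, rose (0.86 ± 0.24, adjusted p = 0.0382), a call lost under 12 of the 17 alternatives. The genes glt1, gln1 and gdh1 were named after their values were seen.

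Genes for the synthesis of amino acids, nucleotides and charged tRNAs were called lower in more than 50% of each list. Of 50 amino acid biosynthesis genes, 34 fell and 0 rose by limma (35 and 0 unadjusted; 68.0% called lower), with a median of -0.66, and 14 were called lower in the interaction. The glycine cleavage gene gcv1 went from 0.79 and 0.02 to -1.96 and -2.63 (-2.70 ± 0.17), and the serine synthesis gene ser2 from 0.57 and -0.09 to -1.84 and -2.55 (-2.43 ± 0.18). Also among the largest falls of this list were gcv2 of glycine cleavage at -1.59 ± 0.19, arg4 of arginine synthesis at -1.54 ± 0.15 and his2 of histidine synthesis at -1.54 ± 0.11. Among 20 genes for purines and pyrimidines 11 fell and 0 rose (12 and 0 unadjusted), led by ade5 (-2.12 ± 0.22) and ade9 (-1.30 ± 0.20). Of 12 cytosolic tRNA synthetase genes, which join amino acids to tRNAs, 10 fell and 0 rose (10 and 1 unadjusted), from -0.99 ± 0.18 for nrs1 (asparagine) and -0.98 ± 0.13 for wrs1 (tryptophan) upward. Of 23 translation factor genes 11 fell and 0 rose (12 and 1 unadjusted), with a median of -0.34. The interaction called 2 of the 20 purine and pyrimidine genes lower, 2 of the 12 tRNA synthetase genes and 1 of the 23 translation factor genes. Over all probe sets 7.68% were called lower in it. Without replicate 1 or 2 of fcp1-452 at 26 °C the falls numbered 19 and 12 among amino acid biosynthesis genes, 5 and 2 among purine and pyrimidine genes, 5 and 0 among tRNA synthetase genes, and 1 and 0 among translation factor genes.

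Cytosolic ribosomal protein genes moved little, but mostly downward. Differences were below 0 in 67 of 74 genes of the large subunit and 38 of 45 of the small, against 2620 of all 4999 probe sets. Among 74 of the large subunit 19 fell and 0 rose (27 and 1 unadjusted; 25.7% called lower, near the 21.5% of all named genes), with a median of -0.15, and among 45 of the small subunit 9 fell and 0 rose (16 and 0 unadjusted), with a median of -0.14. Without replicate 1 or 2 of fcp1-452 at 26 °C these falls numbered 2 and 1 for the large subunit and 1 in both cases for the small. A single paralogue stood apart. The samples of rpl1603 were at 0.09 and 0.12 at 26 °C and at -3.82 and -2.58 at 37 °C (-3.31 ± 0.34, adjusted p = 0.00228), whereas its paralogues stood at -0.74 ± 0.10 (rpl1602) and -0.34 ± 0.14 (rpl1601, not called). These 3 genes code for nearly the same ribosomal protein, and wild type put rpl1603 at -0.16. Lipid synthesis genes fell in part: 9 of 25 genes for fatty acids and phospholipids (4 without either of those replicates), among them both fatty acid synthase subunit genes, fas1 (-0.99 ± 0.11) and fas2 (-1.07 ± 0.10), and cut6 (-0.97 ± 0.11), the acetyl-CoA carboxylase that supplies them.

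**Figure D2:**
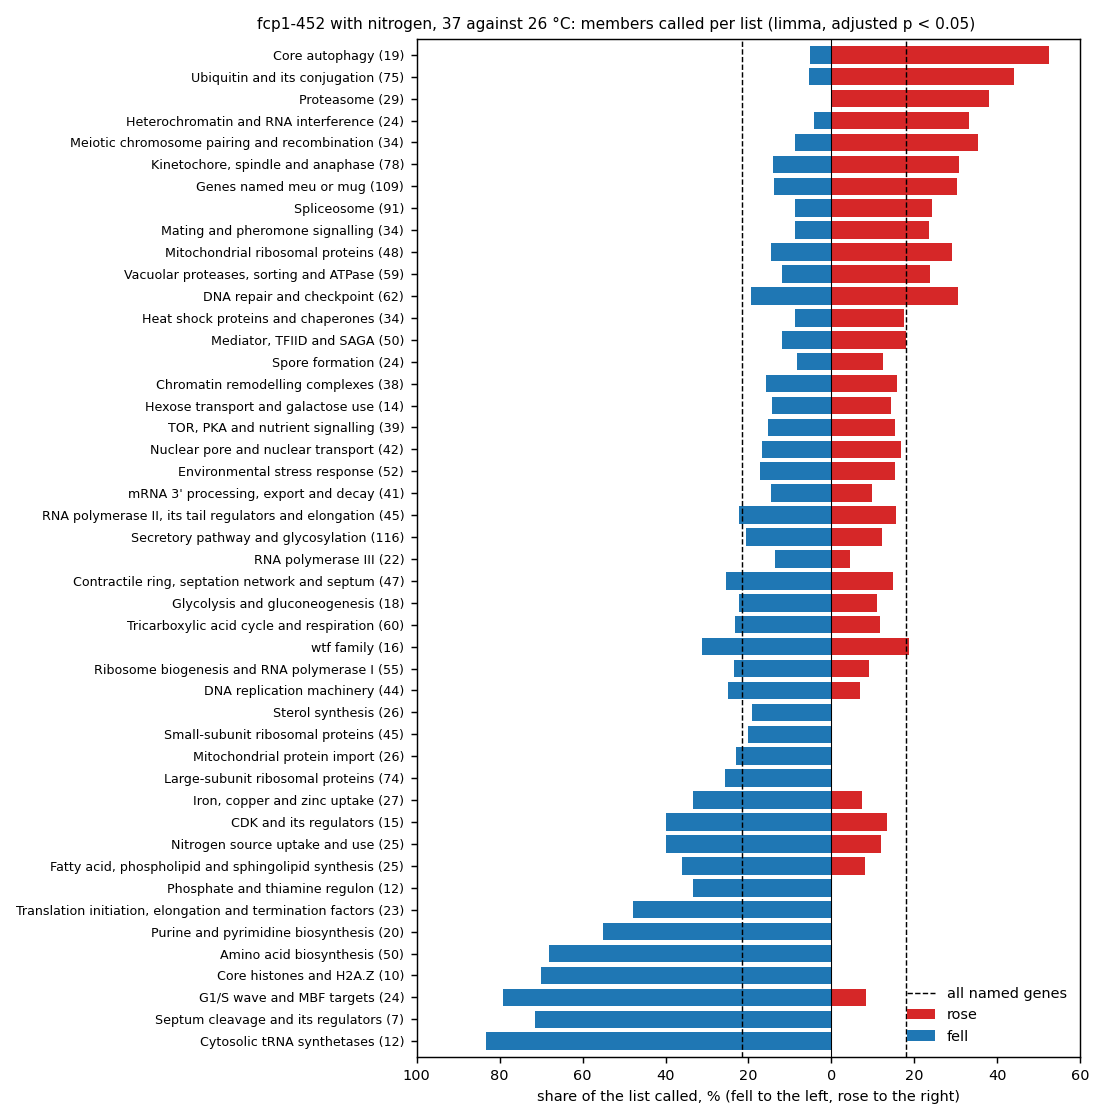
Share of each gene list called in fcp1-452 at 37 against 26 °C (horizontal axis, %), falls to the left in blue and rises to the right in red, with the number of measured members in brackets. The dashed lines mark the shares of all 2899 named genes (21.5% lower, 17.9% higher); tRNA synthetases, the G1/S wave and amino acid biosynthesis reach far left of the line, and autophagy, ubiquitin conjugation and the proteasome lie right of theirs.

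In the list of iron, copper and zinc uptake 9 of 27 genes fell and 2 rose (33.3% and 7.41%, against 21.5% and 17.9% of all named genes), with a median of -0.21. The falls numbered 4 without either replicate of fcp1-452 at 26 °C and 3 to 10 over the 17 alternatives. The ferric reductase gene frp1 was at 0.71 and 0.92 at 26 °C and at -2.70 and -2.48 at 37 °C (-3.41 ± 0.10, adjusted p = 0.000399), and wild type fell in it as well, by 1.92 on the log2 scale. For the siderophore transporter gene str3 the samples went from 0.04 and 2.07 to -2.82 and -3.34 (-4.14 ± 0.71), so that the samples at 26 °C alone were more than 2 log2 units apart. The iron permease gene fip1 fell by 1.81 ± 0.47 on the log2 scale, and fio1, the neighbouring gene for the oxidase that works with it, missed the threshold with -1.65 ± 0.55 (adjusted p = 0.0596). In fio1 replicate 2 at 37 °C was at -2.84 and replicate 1 at -0.47.

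Sugar genes split within a pathway. Galactose use needs the kinase Gal1, the transferase Gal7 and the epimerase Gal10, and in wild type at 37 °C gal10 rose (2.79, adjusted p = 0.0128). In fcp1-452, gal1 went from 0.16 and -0.56 to -2.79 and -2.88 (-2.63 ± 0.28, adjusted p = 0.00233), while wild type had 0.14 and -0.10 at 26 °C and 0.73 and 1.26 at 37 °C. Both fcp1-452 samples at 37 °C lay below and both wild-type samples above those at 26 °C, and the interaction was -3.61 (adjusted p = 0.0151). The gene next to it, gal10, was named after its values were seen. In the mutant it was not called (0.05 ± 0.22, adjusted p = 0.877), and its interaction was -2.75 (adjusted p = 0.0151). The third gene, gal7, rose by 0.66 ± 0.20, a call lost under 11 of the 17 alternatives. In the list of hexose transport and galactose use 2 of 14 genes rose and 2 fell (14.3% each, against 17.9% and 21.5% of all named genes). Its hexose transporter gene ght3 fell (-2.48 ± 0.27). In the glycolysis and gluconeogenesis list fbp1 rose from -0.23 and -0.64 to 1.60 and 1.28 (1.88 ± 0.18). This is the fructose-1,6-bisphosphatase gene, which glucose represses through protein kinase A. Upstream in that pathway, the cAMP phosphodiesterase gene cgs2 (-1.94 ± 0.16) and the G protein genes gpa2 (-0.97 ± 0.11) and git5 (-1.25 ± 0.18) fell, within a nutrient signalling list of 6 rises and 6 falls among 39. Those shares, 15.4% each, were below the 17.9% and 21.5% of all named genes.

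The largest rise of a named gene was in a chaperone gene. The small heat shock protein gene hsp16 was at -0.80 and -0.43 at 26 °C and at 4.0 and 4.16 at 37 °C (4.70 ± 0.69, adjusted p = 0.00535). Wild type at 37 °C had 0.29 in replicate 1 and 2.83 in replicate 2, and the interaction of 2.52 was not called (adjusted p = 0.146). The Hsp70 gene ssa1 went from 0.00 and -0.14 to 2.55 and 3.07 (2.88 ± 0.62, a call lost without the replicate block, after quantile normalization, and without replicate 2 of fcp1-452 at 26 °C or either of its replicates at 37 °C), and in wild type it stood at -2.55 in replicate 1 and -0.13 in replicate 2 at 37 °C. Its interaction was 4.29 with all samples (adjusted p = 0.0388) and 3.13 without that wild-type replicate 1 (adjusted p = 0.0488). Most chaperone genes moved little: 6 of 34 rose and 3 fell (17.6% and 8.82%), with cdc37, a partner of Hsp90, at 1.23 ± 0.12. Of 52 stress response genes 8 rose and 9 fell (15.4% and 17.3%, against 17.9% and 21.5% of all named genes). The metallothionein gene zym1 had the largest rise of that list, with 1.64 and 4.15 at 37 °C against -0.28 and 0.05 (3.01 ± 0.56). Among wall enzymes the glucanase genes bgl2 and exg1 moved apart, bgl2 from 0.02 and -0.14 to 1.79 and 1.65 (1.78 ± 0.14) and exg1 from 0.32 and 0.14 to -2.78 and -2.52 (-2.88 ± 0.14), each with a called interaction.

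Genes of autophagy, ubiquitin conjugation and the proteasome were among the lists with the highest shares of rises. The share in the vacuolar list, 23.7%, was nearer to the 17.9% of all named genes. In the interaction 3 of 29 proteasome genes and 7 of 75 ubiquitin genes were called higher. Of 19 core autophagy genes 10 rose and 1 fell (52.6% and 5.26%), with a median of 0.60 (wild type 0.01), and 6 were called higher in the interaction. The atg17 gene, a scaffold of the kinase complex that starts autophagy, was at -0.42 and -0.21 at 26 °C and at 0.99 and 1.14 at 37 °C (1.38 ± 0.10, adjusted p = 0.00127). Its partner atg13, the regulatory subunit, went from 0.03 and -0.18 to 1.31 and 1.22 (1.35 ± 0.14), while both wild-type samples at 37 °C, 0.11 and -0.46, overlapped those at 26 °C. Later steps rose too, with atg15, the lipase that opens the delivered vesicle (1.28 ± 0.12), atg9, a membrane protein (1.11 ± 0.19), and atg12, part of a ubiquitin-like conjugate (1.06 ± 0.12), and atg2 was the member that fell (-0.73 ± 0.19), a call lost under 11 of the 17 alternatives. Rises numbered 5 to 12 over those alternatives, with 6 and 5 without replicate 1 or 2 of fcp1-452 at 26 °C. Among 29 proteasome genes 11 rose and 0 fell by limma (13 and 0 unadjusted; 37.9% called higher), each by less than 2-fold, with rpn11, the deubiquitinase of the lid, highest (0.77 ± 0.13). These 11 became 1 and 0 without replicate 1 or 2 of fcp1-452 at 26 °C, 2 with the fcp1-452 samples alone and 3 without the replicate block. Of 75 genes for ubiquitin and its conjugation 33 rose and 4 fell (44.0% and 5.33%), the highest being the F-box genes pof13 (1.59 ± 0.11) and pof1 (1.49 ± 0.29) and ubx3 (1.39 ± 0.23). These 33 became 12 and 6 without replicate 1 or 2 of fcp1-452 at 26 °C and 7 without the block. The vacuolar list held 14 rises and 7 falls among 59, with the fusion GTPase gene ypt7 highest (1.13 ± 0.11), and its rises became 2 and 1 without those replicates.

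**Figure D3:**
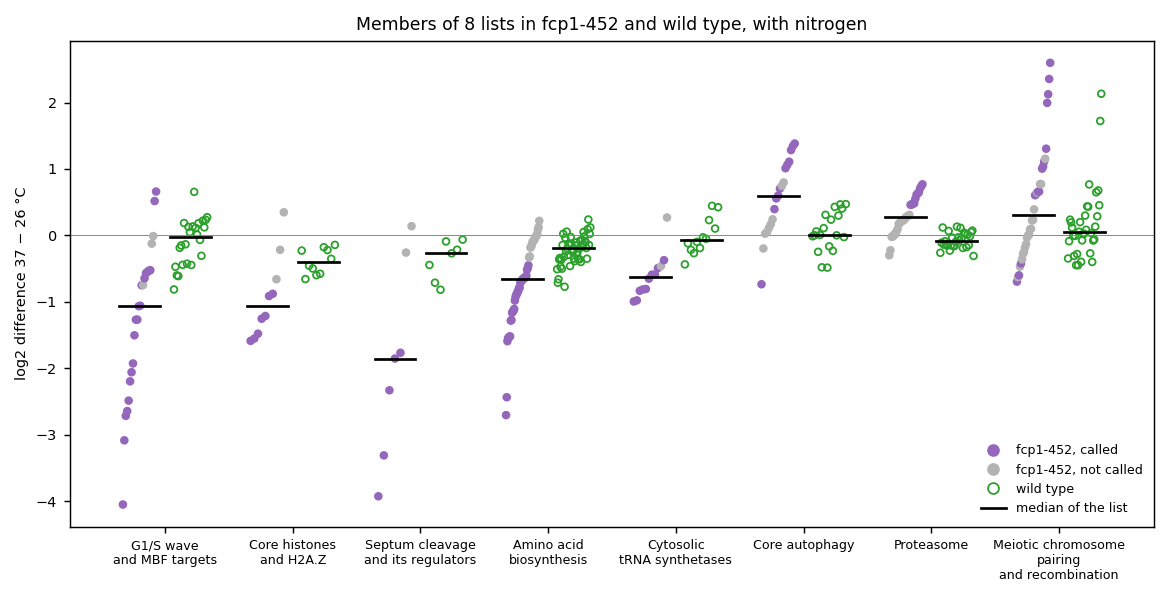
Log2 difference, 37 minus 26 °C (vertical axis), of every measured member of 8 lists, fcp1-452 on the left of each column (purple when called, grey when not) and wild type on the right (open green circles), with a black line at the list median. The 3 cell cycle lists and the biosynthesis lists lie below 0 in fcp1-452 and nearer to 0 in wild type, and autophagy lies above 0 in fcp1-452 (median 0.60) with wild type at 0.01.

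Several genes of meiosis rose in cells that had nitrogen. Of 34 genes that pair and recombine chromosomes in meiosis 12 rose and 3 fell (35.3% and 8.82%), with a median of 0.31 (wild type 0.05). Of 109 genes named meu or mug for their induction in meiosis 33 rose and 15 fell (30.3% and 13.8%), with a median of 0.26 (wild type 0.14). The interaction called 1 of the 34 higher, and of the 109 it called 6 higher and 8 lower. Without replicate 1 or 2 of fcp1-452 at 26 °C the rises numbered 4 and 2 in the first list and 12 and 9 in the second. The meu13 gene, needed for homologue pairing, was at -1.08 and -0.90 at 26 °C and at 0.76 and 2.46 at 37 °C (2.60 ± 0.47). For hop1, a component of the meiotic chromosome axis, the values were -0.80 and -0.76 against 1.07 and 2.08 (2.35 ± 0.33). These same genes were higher in wild type at 37 °C in both samples, 0.54 and 1.27 for meu13 and 0.51 and 0.94 for hop1, without being called there (adjusted p = 0.0951 and 0.0761), and neither interaction was called. In contrast, mcp7, the partner of Meu13, rose by 2.12 ± 0.25 with a called interaction (1.67, adjusted p = 0.0402). In the list of mating and pheromone signalling 23.5% rose and 8.82% fell, with a median of 0.11 in fcp1-452 and 0.23 in wild type. Of the genes of mating and pheromone signalling 8 of 34 rose and 3 fell, with fus1, a formin for cell fusion, at 1.90 ± 0.35, and the rises of this list numbered 2 without either of the fcp1-452 replicates at 26 °C. The mug108 gene went from -0.71 and 0.04 to 3.62 and 2.92, a 12.2-fold rise (3.61 ± 0.32, adjusted p = 0.00196), and wild type went from -0.29 and -0.10 to 0.03 and 0.10.

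Genes of RNA polymerase II, the enzyme that Fcp1 acts on, showed no common direction. Of 45 genes for its subunits, tail regulators and elongation factors 7 rose and 10 fell (15.6% and 22.2%, near the shares of all named genes). The falls included the subunit gene rpb9 (-1.58 ± 0.33), the RNA triphosphatase gene pct1 for capping (-1.60 ± 0.16) and the elongation factor gene spt4 (-0.96 ± 0.10). Of 91 spliceosome genes 22 rose and 8 fell (24.2% and 8.79%), led by cwf24 (1.21 ± 0.14). In the heterochromatin and RNA interference list 8 of 24 rose (33.3%) while arb2, a subunit of an Argonaute chaperone complex, fell (-1.43 ± 0.14). Without replicate 1 or 2 of fcp1-452 at 26 °C the rises numbered 8 and 5 in the spliceosome list, 2 and 1 in the heterochromatin list and 5 and 4 among DNA repair genes. The DNA repair genes moved both ways, 19 up and 12 down of 62 (30.6% and 19.4%), with a median of 0.10 (wild type 0.12). The DNA glycosylase gene mag1 had the largest rise of that list, from 0.02 and -0.08 to 1.80 and 1.72 (1.79 ± 0.12), with wild type at -0.01 and an interaction of 1.80 (adjusted p = 0.0141).

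Genes linked to mating type were set beside these results in 2 short lists. Of 5 genes in the first list 1 rose and 0 fell by limma (1 and 1 at an unadjusted p under 0.05). Of 7 genes in the second 2 rose and 0 fell (2 and 0 unadjusted). The lists do not separate P cells from M cells cleanly, so these are not counts by mating type. The M-factor gene mfm2 separated libraries: wild-type replicate 1 stood at 5.24 and 5.15 at 26 and 37 °C, and the other 6 samples lay between -3.14 and 0.40. Since ratios keep no level, which of these genes were absent could not be read, and the part of this difference in the results was not tested.

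Comparison with wild type shows which parts of the shift were shared. The wild-type value had the same sign for 689 of the 890 called rises and 797 of the 1105 called falls, but its median was only 0.17 over those rises and -0.15 over those falls. Across all probe sets the shifts of the strains correlated at r = 0.447. Of the 27 wild-type calls, 22 were called the same way in fcp1-452, which makes them 22 of its 1995 calls. The kinase gene ppk31 was the clearest case: it went from -0.89 and -0.94 to 0.95 and 0.99 in the mutant (1.89 ± 0.17) and by 1.83 in wild type, with an interaction of 0.06. The hri1 gene, a kinase of the initiation factor eIF2, rose by 1.51 and 1.48 in the 2 strains. Among called genes with the smallest interactions were car2, an enzyme of arginine breakdown (0.56 in both), and the kinesin gene klp5 (-0.55 and -0.52), whose mutant calls were lost under 6 and 8 of the 17 alternatives.

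The test of the difference called 206 probe sets higher and 384 lower in fcp1-452 than in wild type. Only 35 of the 203 called 2-fold rises and 25 of the 375 called 2-fold falls were 2-fold the same way in wild type. Besides aat1, put4 and gal1, the largest named interactions among the falls were mmf2 (-3.60), for a protein of the mitochondrial Mmf1 family, and adg1 (-3.48). Among the rises they were ssa1, mug108 (3.35), etr1 (2.20), the trehalose phosphate synthase gene tps1 (1.87) and slt1 (1.81). For tps1 and slt1 wild type was low at 37 °C, with tps1 at -1.37 and -0.63 and slt1 at -1.24 and -0.70. The difference of tps1 in fcp1-452 was 0.89 ± 0.30 and was not called (adjusted p = 0.0606).

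**Figure D4:**
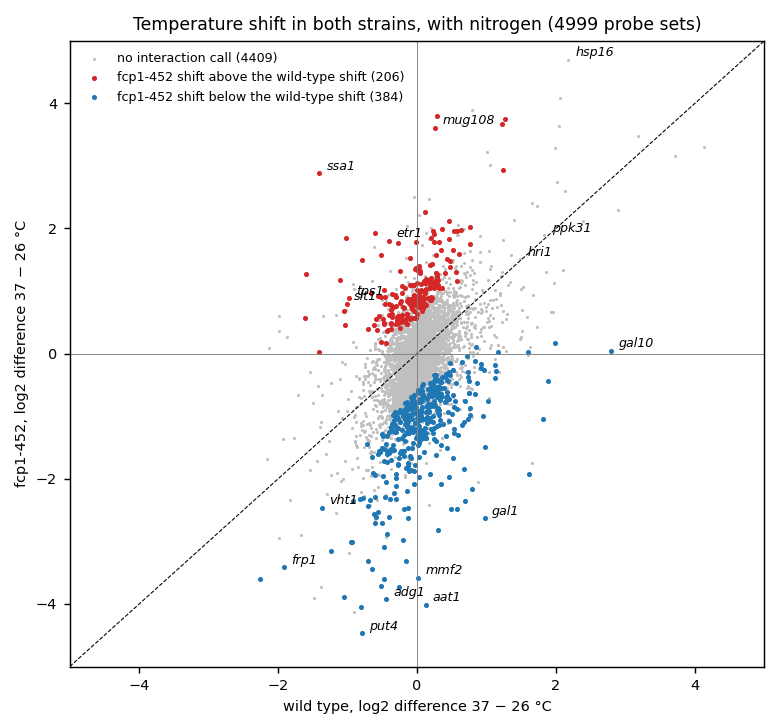
Log2 difference, 37 minus 26 °C, of each of the 4999 probe sets in wild type (horizontal axis) and in fcp1-452 (vertical axis), both with nitrogen, with equal scales and a dashed line of equal shifts. Red points (206) and blue points (384) were called in the interaction; ppk31 and hri1 lie on the dashed line, while put4, aat1 and adg1 lie far below it.

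The series also holds single arrays of starved cells, which are no part of the shift in nitrogen. The fed wild-type array at 26 °C set beside them enters the wild-type shift and the interaction. Through the spread and the replicate effect estimated over both strains, that array also enters the fcp1-452 calls. The starved arrays are given as values with no test. Starvation of wild type at 26 °C moved 630 probe sets at least 2-fold up (12.6%) and 712 down (14.2%). Of the 890 called rises in fcp1-452 with nitrogen, 21.1% were at least 2-fold higher in starved wild type and 7.64% lower, and of the 1105 called falls 23.9% were lower and 7.51% higher. Read the other way, 29.8% of the 630 were called rises and 37.1% of the 712 called falls. The correlation across probe sets was r = 0.284.

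Named genes fell into distinct combinations of these 2 comparisons. The permease genes put4, amt1 and isp5 and the oxygenase gene isp7 fell in the mutant but were higher in starved wild type, with starvation values of 1.25, 1.97, 4.01 and 2.45. The cell separation genes adg1, adg2 and eng1 were lower in both, with starvation values of -4.92, -3.62 and -3.59, as was frp1 at -4.89. The rises of mug108, zym1 and meu22 were shared with starvation (5.13, 5.32 and 3.67), whereas meu13 and hop1 were lower in starved wild type (-1.83 and -1.02). The ribonucleotide reductase gene cdc22 had a starvation value of -0.32 beside its fall of 3.08.

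**Figure D5:**
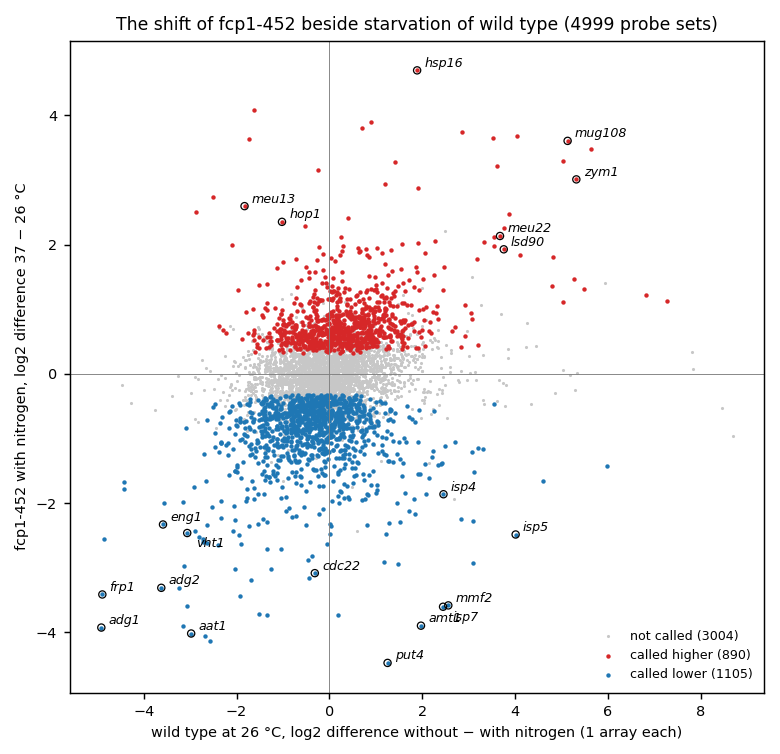
Log2 difference of starved minus fed wild type at 26 °C, 1 array each (horizontal axis), against the log2 difference of fcp1-452 with nitrogen at 37 minus 26 °C (vertical axis) for 4999 probe sets, red where called higher and blue where called lower in fcp1-452. The genes put4, amt1, isp5 and isp7 lie at the lower right, the cell separation genes adg1, adg2 and eng1 at the lower left, and mug108 and zym1 at the upper right.

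The same step from 26 to 37 °C was also made without nitrogen. In these single arrays 954 probe sets were at least 2-fold higher (19.1%) and 856 lower (17.1%), and starved wild type had 204 (4.08%) and 84 (1.68%). Of the called rises with nitrogen 30.6% were 2-fold higher there and 6.63% lower, and of the called falls 31.9% were lower and 12.4% higher, with r = 0.238 across probe sets. The G1/S list, at -1.06 with nitrogen, had a median of 0.59 in starved cells, where cdt2 stood at 1.40 and ams2 at 1.33. The amino acid permease gene aat1 was at 3.18 and adg2 at 3.01 in starved cells, opposite to their falls with nitrogen. For meu13 and hop1 the starved values were 5.74 and 4.09, above their rises with nitrogen. Each of these starved values rests on 1 array per temperature, and the difference between fed and starved cells was not tested.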

How the data were processed

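The deposited value of each probe set on 16 arrays was a linear ratio. The submitters' processing notes name the method RMA (robust multi-array averaging) without giving a version. Within each set of 8 arrays every probe set had a median ratio of 1, so the authors' values are relative to that median, which removes levels. Replicate 1 was the mean of its 2 near-identical arrays, after set 1 was shifted to the scale of set 2. A limma model (version 3.58.1, R 4.3.3) was fitted to log2 ratios of 8 samples with nitrogen (group means with the replicate number as a block, 3 residual degrees of freedom, prior 2.75 degrees of freedom), adjusted by Benjamini-Hochberg over 4999 probe sets and tested on simulated data. The block rests on the data: differences between replicates 1 and 2 correlated in all 6 pairs of groups (r = 0.640 to 0.870). Names came from the platform annotation, updated through RefSeq ASM294v3, which also gave neighbouring genes: 2917 probe sets had 1 gene, 20 several and 2062 none; for a gene with several, the smallest SE was used. Named genes were the 30 largest called changes each way, up to 5 called members each way and 3 others per list (48 lists), and those nearest to or farthest from wild type. Members and lists were chosen with earlier results of these data known.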

Additional observations from a re-analysis of the deposited data

Results flagged for a closer look

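For 590 probe sets limma called a different response to 37 °C in fcp1-452 than in wild type, a count that depends on the processing as given below. Among named genes the largest called interactions (fcp1-452 shift minus wild-type shift, log2) were 4.29 for ssa1, 3.35 for mug108, 2.20 for etr1, 1.87 for tps1 and 1.81 for slt1 on the higher side. On the lower side they were -4.14 for aat1, -3.67 for put4, -3.61 for gal1, -3.60 for mmf2 and -3.48 for adg1. In gal1 the strains moved in opposite directions in both replicates. With 2 samples per group, single samples that stand apart from their group could not be tested for.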

How the results depend on the processing

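Of 111 genes named here 103 were called in the fcp1-452 shift, and 46 of these lost the call under at least 1 of 17 alternatives, 36 of them without the replicate block, 29 without replicate 2 and 14 without replicate 1 of fcp1-452 at 26 °C, and 10 under quantile normalization. No called probe set changed direction under any of the 17. Only gal10, which was not called, changed sign (0.05, against -0.05 without replicate 1 of fcp1-452 at 26 °C, and -0.15 to 0.24 over all samples left out in turn). For the fcp1-452 shift some of the 17 were the same fit. Leaving out either replicate of wild type equalled using the fcp1-452 samples alone. Leaving out 1 wild-type sample equalled leaving out the other at that temperature. Numbers of alternatives under which a call was lost count such fits repeatedly. Using the arrays of set 2 alone, centring on the median or leaving out low ratios kept all 3 counts of calls within 1.5 times. The low-ratio filter dropped probe sets with a ratio of 0.05 or less on any array. It kept 104 of the 111 named genes, so it did not check those it removed, put4 and adg1 among them. Without the replicate block the fcp1-452 shift had 593 calls (232 higher, 361 lower), the wild-type shift 0 (0 and 0 by limma, 368 at an unadjusted p under 0.05) and the interaction 7 (0 and 7), so the counts rest on the pairing of replicates. Quantile normalization gave 1145 (564 and 581), 440 (240 and 200) and 0 (0 and 0 by limma, 892 unadjusted). The fcp1-452 samples alone, with the replicate block, gave 941 (380 and 561). The 16 arrays with set as a term gave 296 wild-type calls (182 and 114) and 933 interaction calls (377 higher). That fit had no replicate block and counted the near-identical arrays as separate samples, so its p-values treat copies as replicates. Leaving out 1 sample, or both wild-type samples of 1 replicate, gave 508 to 2657 calls for the fcp1-452 shift (184 to 1175 higher, 324 to 1482 lower). It gave 0 to 605 for wild type (0 to 358 and 0 to 247) and 0 to 1717 for the interaction (0 to 667 and 0 to 1050). The cause of these differences was not tested. Ratios carry no signal over background, so what dim probe sets limit is not known.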

Other observations

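Of 48 mitochondrial ribosomal protein genes 14 rose and 7 fell (29.2% and 14.6%, against 17.9% and 21.5% of all named genes), with mrps17 at 1.30 ± 0.16 and mrpl31 at -0.99 ± 0.12. Of 26 mitochondrial protein import genes 6 fell (23.1%, near the share of all named genes) and 0 rose by limma (9 and 3 at an unadjusted p under 0.05), among them tom40, the outer membrane pore gene (-1.16 ± 0.19), and tim50 (-0.95 ± 0.13). In the interaction limma called 0 of these 26 (2 lower and 0 higher unadjusted). In the list of the tricarboxylic acid cycle and respiration 14 of 60 fell (23.3%) and 7 rose. No difference between these lists was tested, and without replicate 2 of fcp1-452 at 26 °C the 14 rises became 1, the 6 import falls 0 and the 14 falls 2. The falls of the last list included the malic enzyme gene mae2 (-1.49 ± 0.13) and the citrate synthase gene cit1 (-1.14 ± 0.23). Members of the wtf family of spore killers, which are near-identical in sequence so that probe sets can share transcripts, moved both ways, 3 up and 5 down of 16 (18.8% and 31.2%). Their median was 0.09 in fcp1-452 and 0.75 in wild type.

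Probe sets with no gene name here moved as far as many named ones. Of these, 1773133_at rose by 4.08 ± 0.52 and 1770218_at by 3.89 ± 0.76, while 1778924_at stood at -3.90 ± 0.56 and 1780208_at at -3.73 ± 0.55, all called by limma. The 3 probe sets of the malate permease gene mae1 gave -1.49, -0.86 and -0.37, the last not called.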
